A study of Mus musculus with 24 samples.

Results

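The PRXL2 family of the mouse comprises Prxl2a and its paralogues Prxl2b and Prxl2c, which were taken from the expression table by gene symbol. They were 3 of the 19015 genes measured, and all 3 passed the filter on low counts in every tissue. RNA was sequenced from liver, brain, brown fat taken dorsally (BAT) and inguinal fat (IAT, a white depot) of female mice aged 12 weeks. In each tissue 3 libraries came from wild-type (WT) mice and 3 from mice knocked out for Prxl2a (KO), which gave 24 libraries in 8 groups. Mice of both genotypes had been perfused with PBS to clear the blood before the tissues were taken. The strain, and the part of Prxl2a removed by the KO allele, were not given in the sources used here. The design names 3 mice per genotype but no label ties a library to a mouse, so tissues may share mice. The question was whether the paralogues are higher where Prxl2a is lost.

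PRXL2 proteins are peroxiredoxin-like members of the thioredoxin-fold superfamily. In thioredoxin-fold enzymes a pair of cysteines separated by a short spacer, the CXXC motif, can switch between a thiol and a disulfide form and so carry out redox reactions. Prxl2a is also known as adiporedoxin, a protein of adipocytes linked to the oxidative folding of secreted proteins, and as PAMM, a redox-regulatory protein of osteoclast precursors and macrophages. Prxl2b is prostamide/prostaglandin F synthase, which reduces prostaglandin H2 and its ethanolamide relative to F-type products and is known from brain. Prxl2c, formerly Aaed1, carries an AhpC/TSA domain and is the least described of the family.

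The stretch around the CXXC cysteines is shown for each gene because it is the redox centre the members share, and because the differences between the stretches bear on whether their reads can be told apart. The coding bases are 5′ to 3′ on GRCm38, all on the minus strand, with the codons of both cysteines in capitals.
Prxl2a: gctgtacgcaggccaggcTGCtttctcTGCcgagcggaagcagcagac
Prxl2b: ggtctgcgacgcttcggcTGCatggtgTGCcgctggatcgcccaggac
Prxl2c: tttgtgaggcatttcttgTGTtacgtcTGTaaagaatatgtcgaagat
The Prxl2a stretch lies on chr14:40998973-41002471 and is spliced across an exon junction, with the cysteines at codons 74 and 77 in exon 3 of 6. The Prxl2b stretch is contiguous at chr4:154898585-154898632, with the cysteines at codons 44 and 47 in exon 2 of 7. The Prxl2c stretch is spliced within chr13:64312297-64312501, with the cysteines at codons 68 and 71 in exon 2 of 6. Prxl2a and Prxl2b spell both cysteines TGC and Prxl2c spells both TGT. Each coding sequence held 1 such in-frame pair of cysteines.

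The coding sequences had diverged at the DNA level. They spanned 654 bases in Prxl2a, 603 in Prxl2b and 678 in Prxl2c, without the stop codon. In pairwise alignment, 63.1% of 537 aligned bases were identical between Prxl2a and Prxl2b, 63.9% of 576 between Prxl2a and Prxl2c, and 64.5% of 546 between Prxl2b and Prxl2c. The longest run shared by any pair of coding sequences was 11 bases, between Prxl2a and the reverse strand of Prxl2b, and no pair of transcripts shared a run of 50 bases. The length of the reads was not given in the sources used here. Against the transcripts of all other genes, 0 of 834 words of 50 bases from the Prxl2b transcript and 7 of 1488 from Prxl2a had a match elsewhere. In Prxl2c the number was 546 of 2962, which is 18.4%, and 86 of these lay in its 629 coding words, so a portion of its reads may be divided among other genes.

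In the genome the family is dispersed. On GRCm38.p6, Prxl2a (gene 70564) lies on chromosome 14 from 40993735 to 41013833, Prxl2b (gene 66469) on chromosome 4 from 154896430 to 154899043, and Prxl2c (gene 66129) on chromosome 13 from 64289798 to 64312710. The paralogues are therefore on other chromosomes than the targeted gene. Prxl2b overlaps a predicted non-coding gene, Gm52690. Whether counting used the strand is not given in the sources used here, so reads of these overlapping genes may not have been told apart.

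Library totals ran from 12327459 expected counts in BAT to 18257788 in liver, and the log2 CPM of replicates correlated across genes at 0.913 to 0.990. Each tissue carried the markers of its label, with summed levels of 36028 to 95047 TPM for 8 white adipocyte genes in IAT, 6907 to 10406 TPM for 7 brown adipocyte genes in BAT, 5956 to 7663 TPM for 6 neuronal genes in brain and 129226 to 159818 TPM for 7 hepatocyte genes in liver. The white adipocyte genes did not set IAT apart from BAT, where they summed to 44563 to 49573 TPM in WT and 47735 to 51704 TPM in KO. The brown adipocyte genes did, at 21.1 to 118 TPM in IAT WT and 38.6 to 51.1 TPM in IAT KO. TPM is a level scaled by transcript length, which allows genes to be compared. Libraries of IAT stood apart. The sum of 10 lymphocyte markers was 2232 TPM in KO replicate 1 and 1100 TPM in KO replicate 3, against 4.92 TPM in KO replicate 2 and 9.76 to 18.2 TPM in WT. The sum of 8 skeletal muscle markers was 1603 TPM in WT replicate 1 and 5659 TPM in WT replicate 2, against 79.2 TPM in WT replicate 3 and 56.5 to 145 TPM in KO. BAT WT replicate 1 also stood high in these muscle markers, at 2195 TPM against 147 to 264 TPM in the other BAT libraries.

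Prxl2a was measured first, since its loss defines the groups. In IAT it stood at 554, 382 and 350 TPM in the WT libraries and at 11.3, 24.4 and 18.6 TPM in the KO libraries. In BAT the WT libraries held 494, 513 and 525 TPM and the KO libraries 21.2, 24.2 and 17.97 TPM. Both fat depots thus kept a low but measurable level of the transcript. Brain WT libraries held 195, 146 and 212 TPM and brain KO libraries 9.36, 9.56 and 11.4 TPM. Liver WT libraries held 91.8, 85.7 and 75.3 TPM, and liver KO libraries 1.72, 0.99 and 2.24 TPM. Every KO library lay far below every WT library of its tissue. Liver kept the fewest reads, with 29, 16 and 37 expected counts in its KO libraries. In CPM (counts scaled to library size, with TMM normalization within each tissue), KO means as a share of WT means came to 1.98% for liver and to 4.19%, 4.56% and 5.54% for IAT, BAT and brain.

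**Figure D1:**
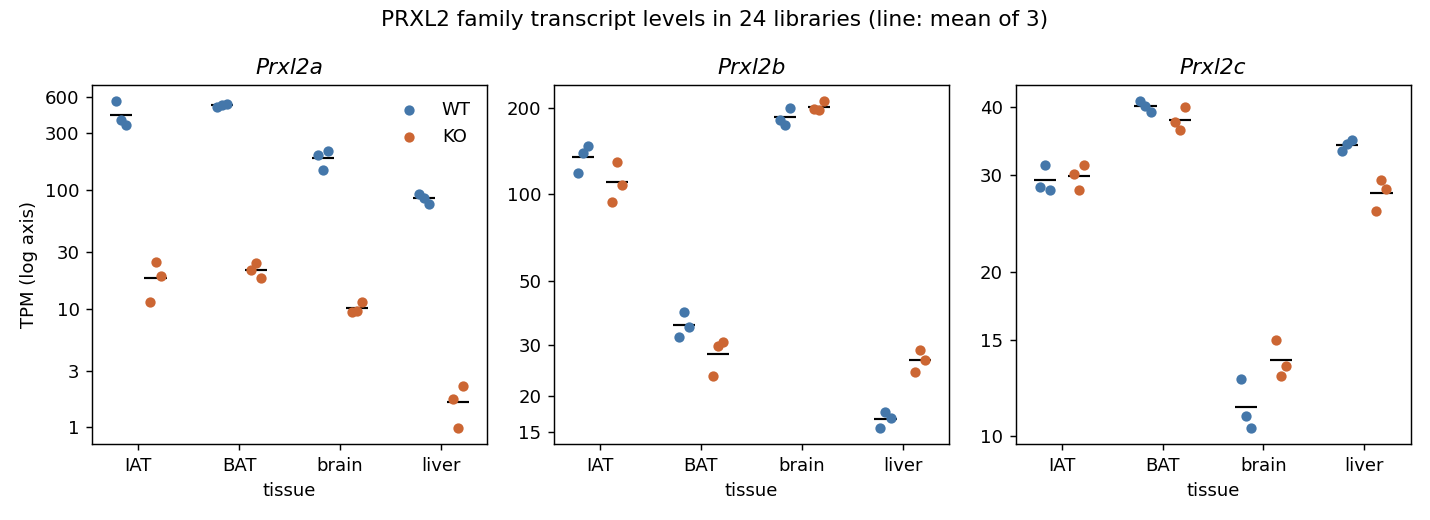
Level of each PRXL2 family gene in TPM (log axis, 1 panel per gene with its own range) by tissue. Points are the 24 libraries, blue for WT and orange for KO, and each line is the mean of 3. Prxl2a is lower in every KO library of every tissue, and Prxl2b is higher in every liver KO library.

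Genotypes were compared within each tissue by edgeR's quasi-likelihood test, with p-values adjusted by Benjamini-Hochberg over all genes tested in that tissue and called under 0.05. Prxl2a fell in BAT, brain and liver, with log2 fold changes of -4.45 (SE 0.13, adjusted p = 1.09e-05), -4.17 (SE 0.16, adjusted p = 0.000131) and -5.65 (SE 0.21, adjusted p = 1.08e-05). In IAT its log2 fold change of -4.58 (SE 0.41) did not pass (adjusted p = 0.0912). No IAT gene was called by edgeR, 0% of 14097 tested, although 2226 (15.8%) had an unadjusted p under 0.05, while DESeq2 called 1121 genes and limma-voom 7. For Prxl2a, the IAT fall was called by DESeq2 (adjusted p = 2.89e-27) and by limma-voom (0.0470). It was also called when all 24 libraries entered a single edgeR fit (adjusted p = 9.87e-09, with 15.9% of genes called for IAT), and when WT replicate 1 (0.0271) or KO replicate 2 (0.00213) was left out.

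Prxl2b, the prostaglandin F synthase, rose in KO liver. Its WT libraries stood at 15.5, 17.5 and 16.8 TPM and its KO libraries at 24.2, 28.7 and 26.7 TPM. The groups did not overlap, and the lowest KO library lay well above the highest WT library. In CPM the mean went from 5.48 (SD 0.0551, n = 3) to 9.46 (SD 0.852, n = 3). This was a log2 fold change of 0.79 (SE 0.12, 95% interval 0.51 to 1.07), or 1.73-fold (1.42 to 2.10), with an edgeR adjusted p of 0.0241. Among 12331 genes tested in liver, 0.576% were called higher in KO (1.11% in either direction), and Prxl2b ranked 73 by p. KO libraries lay wholly above WT libraries for 10.6% of liver genes. An absolute log2 fold change at least this large was found in 4.31% of the liver genes.

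The liver value rested on modest counts, 95, 107 and 93 in the WT libraries against 150, 178 and 170 in the KO libraries. With 1 library left out, the log2 fold change stayed between 0.73 and 0.87, but the call was kept only without KO replicate 1 (adjusted p = 0.0377). It was lost without WT replicate 1 (adjusted p = 0.0779), WT replicate 2 (0.0895), WT replicate 3 (0.0753), KO replicate 2 (0.0713) or KO replicate 3 (0.0653), fits in which 5 libraries remain. The other 11 settings tried, DESeq2 (adjusted p = 0.00248) and limma-voom among them, kept it. Marker sums in liver overlapped between genotypes for hepatocytes (135366 to 159818 TPM in WT, 129226 to 153931 TPM in KO), macrophages (165 to 265 TPM in WT, 141 to 251 TPM in KO) and stroma (170 to 273 TPM in WT, 105 to 190 TPM in KO). They did not overlap for the list of 6 mammary epithelium markers (288 to 367 TPM in WT, 254 to 285 TPM in KO). Krt14 of that list was at 0 in every liver library, and the sum is not read here as mammary cells. Among single genes, KO lay wholly below WT for 11% of liver genes. The low sums of 6 neuronal markers (3.54 to 4.18 TPM in WT, 2.36 to 3.33 TPM in KO) did not overlap either. The part of cell make-up in the Prxl2b value was not tested. In tissue RNA, a change in the number of cells of a type cannot be told apart from a change in RNA per cell.

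**Figure D2:**
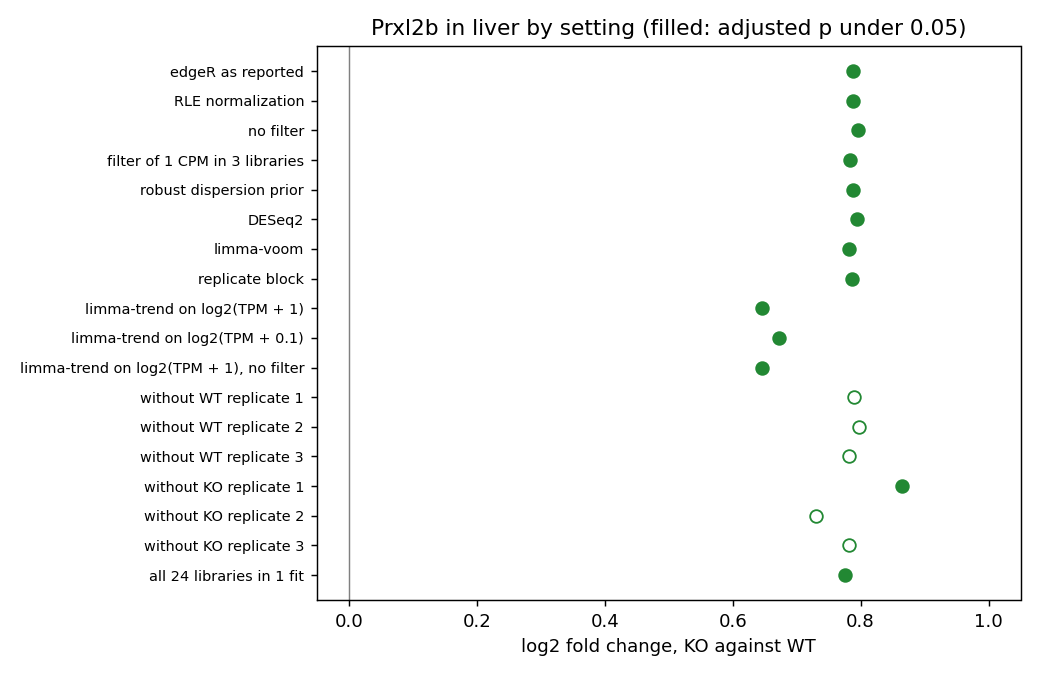
Log2 fold change of Prxl2b in liver, KO against WT (x axis), under each setting tried (y axis). Filled points have an adjusted p under 0.05 and open points do not. All points lie between 0.65 and 0.87, and the 5 open points each leave out 1 library.

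In the other tissues Prxl2b did not pass the test. IAT WT libraries held 119, 139 and 147 TPM of Prxl2b and KO libraries 93.9, 129 and 108 TPM, so the groups overlapped. The IAT log2 fold change was -0.34 (SE 0.20, 95% interval -0.82 to 0.15, adjusted p = 0.429). Without the KO libraries rich in lymphocyte transcripts, replicates 1 and 3, it was 0.01 (adjusted p = 0.997), with the lone KO library assumed to vary like the WT libraries. BAT held 32.0, 39.0 and 34.8 TPM in WT and 23.4, 29.7 and 30.7 TPM in KO. All BAT KO libraries lay below all WT libraries in TPM, a separation whose share over all BAT genes was not counted. In CPM the groups overlapped, and the log2 fold change was -0.21 (SE 0.16, 95% interval -0.59 to 0.17, adjusted p = 0.502). Brain held 182, 175 and 200 TPM in WT and 199, 196 and 211 TPM in KO, and its log2 fold change was 0.03 (SE 0.11, 95% interval -0.22 to 0.28, adjusted p = 0.967). The TPM and the counts parted in brain, where the count per TPM of Prxl2b, relative to the library's median gene, was 0.186 to 0.211 in KO and 0.213 to 0.218 in WT. This quantity follows the estimated effective length of the transcripts, and its KO mean was 0.939 of the WT mean. In the other tissues the ratio was 1.01 to 1.02.

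Prxl2c was not called in any tissue. IAT libraries held 28.5, 31.4 and 28.2 TPM in WT and 30.1, 28.3 and 31.4 TPM in KO, with a log2 fold change of -0.05 (SE 0.11, 95% interval -0.32 to 0.22, adjusted p = 0.812). BAT libraries held 41.0, 40.2 and 39.3 TPM in WT and 37.6, 36.3 and 40.02 TPM in KO, with a log2 fold change of 0.02 (SE 0.08, 95% interval -0.16 to 0.21, adjusted p = 0.899). The genotypes overlapped in both fat depots. In brain the WT libraries stood at 12.7, 10.9 and 10.4 TPM and the KO libraries at 15, 12.9 and 13.5 TPM, so every KO library was above every WT library. There the log2 fold change was 0.28 (SE 0.12, 95% interval 0.01 to 0.56), with an unadjusted p of 0.0457 (6.58% of brain genes had one under 0.05) and an edgeR adjusted p of 0.749. Brain libraries varied in the summed level of 6 choroid plexus markers, with 117, 266 and 2189 TPM in WT and 635, 14.8 and 299 TPM in KO, and the part of this in the Prxl2c value was not tested. In liver the order was opposite, with 33.3, 34.3 and 34.8 TPM in WT and 25.9, 29.5 and 28.3 TPM in KO. The liver log2 fold change was -0.20 (SE 0.08, 95% interval -0.38 to -0.02), with an unadjusted p of 0.0316 (16.1% of liver genes had one under 0.05) and an edgeR adjusted p of 0.254. Such separation was common among all genes, since KO lay wholly above WT for 6.53% of brain genes and wholly below for 11% of liver genes.

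**Figure D3:**
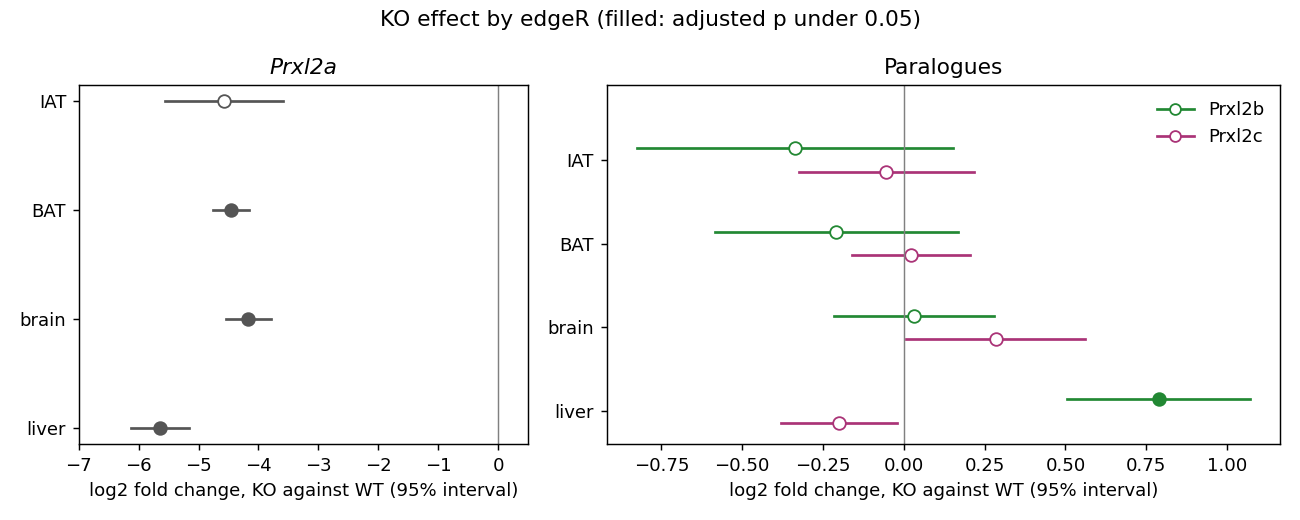
Log2 fold change, KO against WT (x axis), of Prxl2a (left) and of both paralogues (right) in each tissue, with 95% intervals. Filled points have an adjusted p under 0.05. Prxl2a lies between -5.65 and -4.17 in all 4 tissues, and among the paralogues only Prxl2b in liver is filled.

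Across the 8 paralogue comparisons, 1 was called, that of Prxl2b in liver. The share of all genes called in either direction was 1.11% in liver, 0.54% in BAT, 0.0487% in brain and 0% in IAT. Among the 7 that were not called, the highest upper end of a 95% interval was 1.47-fold, for Prxl2c in brain. The interval for Prxl2b reached 1.11-fold in IAT, 1.12-fold in BAT and 1.21-fold in brain. Rises of the paralogues larger than these lay outside the intervals, while smaller ones lay within them. Among all genes tested, Prxl2b lay at the 98.8th percentile of log2 fold change in liver, but at the 19.8th in IAT, the 24.8th in BAT and the 57.9th in brain. Prxl2c lay at the 42.7th, 54.5th, 92.4th and 20.7th percentiles in IAT, BAT, brain and liver.

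**Figure D4:**
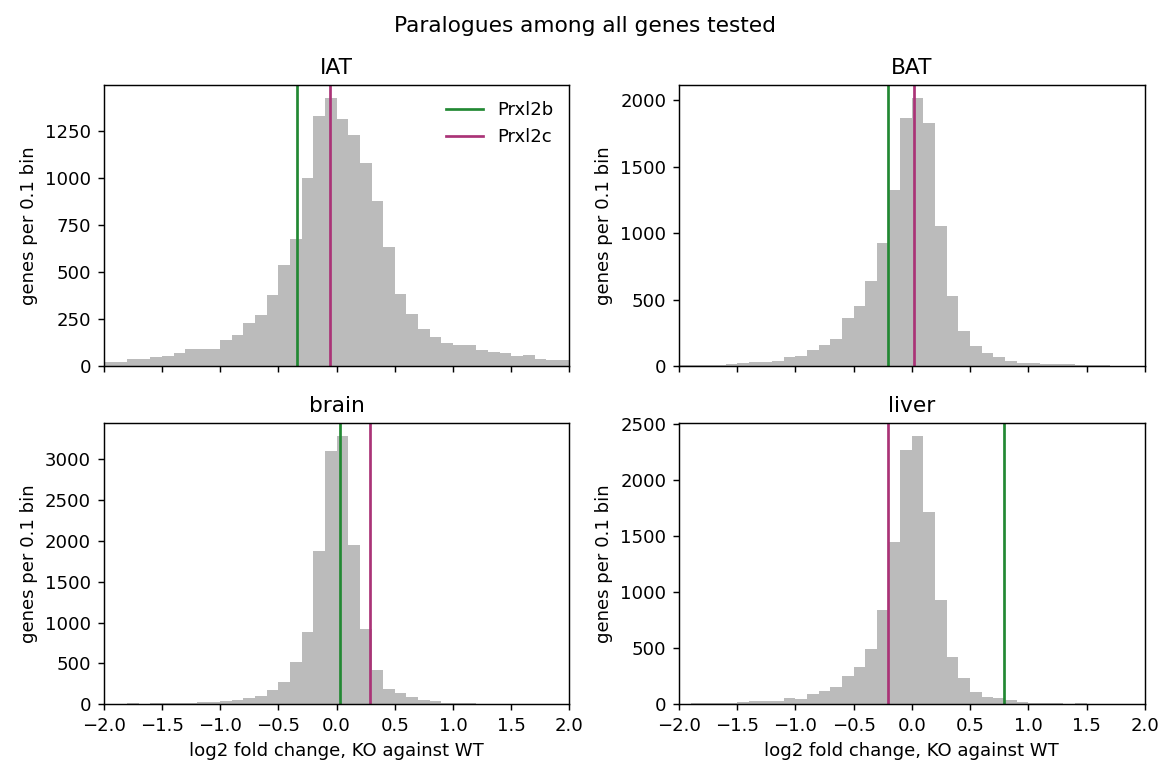
Distribution of log2 fold changes, KO against WT, over all genes tested in each tissue (grey bars, genes per bin of 0.1 within the range drawn), with Prxl2b (green) and Prxl2c (purple) as vertical lines. Prxl2b lies in the right tail in liver, at the 98.8th percentile, and within the body of the distribution elsewhere.

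Whether the effect of the KO differed between tissues was tested in 1 edgeR fit of all 24 libraries. Over the 4 tissues together the difference was not called for Prxl2a (adjusted p = 0.153), Prxl2b (adjusted p = 0.0559) or Prxl2c (adjusted p = 0.107), against 0.421% of 16169 genes called. DESeq2, which called 7.7% of 16033 genes in this test, called it for all 3 members, with adjusted p of 0.0415, 0.00302 and 0.0177 in that order. Between single tissues, 18 differences were tested for the family and 1 was called. It was that of Prxl2b between liver and IAT, where the effects were 0.78 and -0.35 and the difference was 1.12 (SE 0.23, 95% interval 0.64 to 1.599, adjusted p = 0.0392, with 0.785% of genes called between these tissues). The liver effect of Prxl2b exceeded that in BAT by 0.99 (adjusted p = 0.129, 0.0804% of genes called) and that in brain by 0.75 (adjusted p = 0.368, 0.0618% of genes called), and neither difference was called. The share of genes called was 1.38% between brain and IAT, 0.142% between BAT and IAT and 0.0186% between brain and BAT, where no member was called. The IAT effect in this difference included the KO libraries rich in lymphocyte transcripts. Without IAT KO replicates 1 and 3, a setting added after seeing the data, the difference was 0.76, with a lone IAT KO library left. That library, KO replicate 2, also had the highest white adipocyte sum of the IAT KO libraries (95047 TPM). The part of either cell type was not tested. The call was lost in 10 of 12 fits that left out 1 IAT or liver library (adjusted p 0.0736 to 0.0921 in these 10), and with limma-voom (adjusted p = 0.107). The fits that kept it left out IAT WT replicate 1 (difference 1.21, adjusted p = 0.0158) or IAT KO replicate 2 (1.35, adjusted p = 0.000124). For Prxl2c the liver effect lay 0.49 below that in brain, a difference of -0.49 (SE 0.12, 95% interval -0.74 to -0.24) that was not called (adjusted p = 0.193).

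Averaged over the 4 tissues, neither paralogue was called. The average log2 fold change of Prxl2a was -4.72 (SE 0.15, adjusted p = 5.1e-14 by edgeR, with 3.19% of genes called). The average for Prxl2b was 0.06 (95% interval -0.11 to 0.23, adjusted p = 0.780) and that for Prxl2c was 0.00 (95% interval -0.08 to 0.09, adjusted p = 0.99996).

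Summing the family in TPM sets the paralogue changes beside the loss of Prxl2a, as a description without a test. In WT the sum was 593 TPM in IAT (SD 94.7, n = 3), 586 TPM in BAT (SD 16.9), 381 TPM in brain (SD 46.1) and 135 TPM in liver (SD 7.15). In KO it was 158 TPM in IAT (SD 23.2), 87.0 TPM in BAT (SD 4.18), 226 TPM in brain (SD 8.80) and 56.1 TPM in liver (SD 3.88). The KO sums were thus 26.7%, 14.8%, 59.3% and 41.5% of WT in these tissues. BAT kept the least and brain the most. From WT to KO the mean Prxl2a level differed by -410, -490, -174 and -82.6 TPM in this order of tissues. Over the same comparison the summed paralogues differed by -23.9, -9.54, 18.9 and 3.70 TPM. In liver, where Prxl2b was called, this was 4.47% of the Prxl2a loss, since Prxl2b started low and Prxl2c was lower in KO. In brain it was 10.8%, although neither paralogue was called there and most of the TPM gain was that of Prxl2b, which counts did not show (37.4 CPM in WT and 38.2 CPM in KO).

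The make-up of the family differed between tissues before and after the loss. Prxl2a supplied 87.1% of the WT sum in BAT, 71.6% in IAT, 62.3% in liver and 48.1% in brain. In KO its share of the sum was 24.3%, 11.2%, 2.97% and 4.47% in the same order. What remained in KO was mainly Prxl2b in IAT (69.6%) and brain (89.4%), and near-equal parts of Prxl2b (47.3%) and Prxl2c (49.7%) in liver. In BAT it was Prxl2c (43.7%), then Prxl2b (32.0%).

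**Figure D5:**
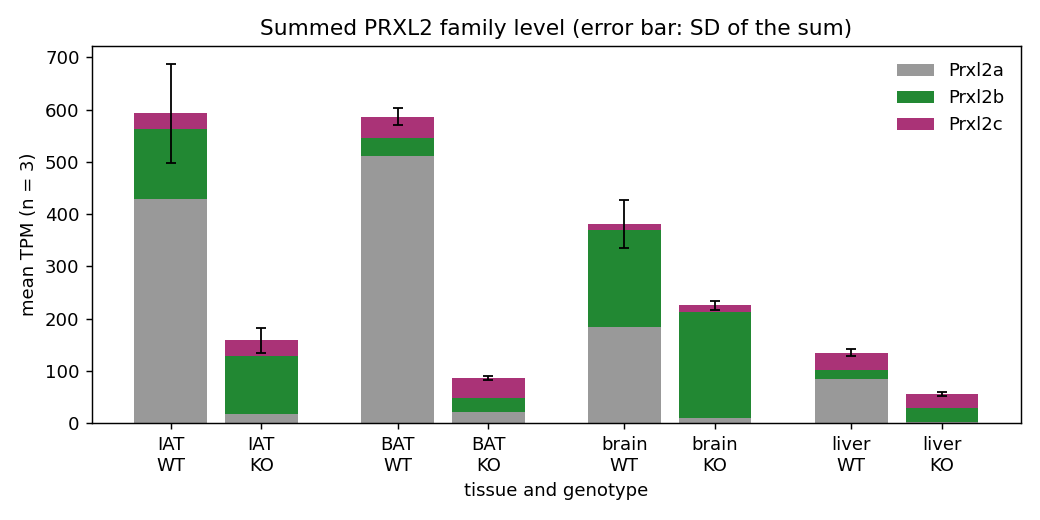
Mean TPM of the 3 PRXL2 family genes, stacked, by tissue and genotype (n = 3 libraries each). Error bars are the SD of the sum. The KO sums range from 14.8% of WT in BAT to 59.3% in brain, and the paralogue segments are of similar height in both genotypes next to the lost Prxl2a segment.

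In WT mice the members had distinct tissue patterns. Prxl2a averaged 511 TPM in BAT (SD 15.6, n = 3), 428 TPM in IAT (SD 110), 184 TPM in brain (SD 34.3) and 84.3 TPM in liver (SD 8.32). Prxl2b averaged 185 TPM in brain (SD 13.2), 135 TPM in IAT (SD 14.7), 35.3 TPM in BAT (SD 3.51) and 16.6 TPM in liver (SD 1.03). Prxl2c averaged 40.2 TPM in BAT (SD 0.871), 34.1 TPM in liver (SD 0.787), 29.4 TPM in IAT (SD 1.73) and 11.3 TPM in brain (SD 1.24). Brain thus held the most Prxl2b and the least Prxl2c. The brain means of Prxl2a and Prxl2b differed by less than their SDs, and in liver every WT library held more Prxl2c than Prxl2b.

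On counts, with the 12 WT libraries normalised together, tissues differed for Prxl2a (edgeR adjusted p = 1.96e-07), Prxl2b (adjusted p = 4.75e-08) and Prxl2c (adjusted p = 6.52e-11). Such a difference was the rule, with 96.1% of 15810 genes called. All 18 differences between single tissues were called for the family (57% of all genes were called between IAT and BAT, 80% between IAT and brain, 69.7% between IAT and liver, 79.2% between BAT and brain, 65.7% between BAT and liver and 82.2% between brain and liver). The closest neighbours were IAT and brain for Prxl2b, 1.25-fold apart (adjusted p = 0.0228), and BAT and liver for Prxl2b, 1.28-fold apart (adjusted p = 0.0270).

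The order of some tissues depended on the scale. In CPM over the WT libraries Prxl2a averaged 488 in BAT, 304 in IAT, 135 in liver and 77.3 in brain, whereas in TPM brain stood above liver. Prxl2b in CPM averaged 34.8 in IAT and 27.9 in brain, whereas in TPM brain was higher. Prxl2c in CPM averaged 114 in liver and 79.9 in BAT, whereas in TPM BAT was higher. These 3 of 18 differences had opposite signs on the TPM scale, where limma-trend on log2(TPM + 1) called 17 of 18 and did not call BAT against IAT for Prxl2a (adjusted p = 0.181). Scaled by library size alone, Prxl2a in brain (104 CPM) also stood above liver (79.8 CPM) and Prxl2c in BAT (82.0 CPM) above liver (67.3 CPM). Prxl2b highest in brain and IAT, Prxl2a highest in both fat depots and Prxl2c lowest in brain held on each of these scales.

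Genes with the most similar WT pattern were found by Pearson correlation of log2(TPM + 1) over the 12 WT libraries among 12961 genes, given as a description because replicates of a tissue share its level. Nearest to Prxl2a were Aamdc (r = 0.994), Rcbtb2 (0.992), Accs (0.989), a homologue of the plant ethylene precursor synthase, and Eif4e3 (0.988), a cap-binding translation factor. Aamdc, a gene associated with adipogenesis, averaged 123, 145, 61.6 and 35.0 TPM in IAT, BAT, brain and liver. Nearest to Prxl2b were Mettl16 (r = 0.996), an RNA methyltransferase, Mcrip1 (0.995), Man1c1 (0.993), a Golgi mannosidase, and Tuba1b (0.992), an alpha-tubulin. Nearest to Prxl2c were Sh2d4a (r = 0.995), Acad11 (0.993), an acyl-CoA dehydrogenase, Slc12a7 (0.992), a potassium-chloride cotransporter, and Naa80 (0.989), the actin acetyltransferase. Acad11 averaged 108, 208, 20.5 and 151 TPM in IAT, BAT, brain and liver. None of these genes was called between KO and WT in any tissue where it was tested, and Sh2d4a was not tested in brain.

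Related redox and prostaglandin genes were read as 5 lists of 56 genes, which gave 217 tests over the 4 tissues. Of these 1 was called, Cbr1 in liver, where 1.11% of all genes were called, against 0.54% in BAT, 0.0487% in brain and 0% in IAT. Cbr1, a carbonyl reductase that acts on prostaglandins among other substrates, rose from 73.6 to 105 CPM, a log2 fold change of 0.52 (SE 0.08, 95% interval 0.33 to 0.71, adjusted p = 0.0256). It belongs to the list of prostaglandin and prostamide synthesis that also describes Prxl2b, in which 14 genes were tested in liver with a median log2 fold change of 0.02, against 0.00 over all liver genes.

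A list for disulfide formation in the endoplasmic reticulum, chosen with earlier results known, also held genes of other function, such as Sdf2l1. In liver, 11 of its 12 genes had higher values in KO, with a median log2 fold change of 0.44. Of the 12, 8 had an unadjusted p under 0.05, as did 16.1% of all liver genes. None passed over all genes. Sdf2l1, a chaperone component of the endoplasmic reticulum, had the smallest p, with 9.22 CPM in WT and 26.7 CPM in KO and a log2 fold change of 1.53 (SE 0.30, adjusted p = 0.0552). In IAT, BAT and brain the median of this list was 0.08, 0.03 and 0.08.

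The 6 peroxiredoxins, thiol peroxidases that remove hydrogen peroxide, and their repair enzyme sulfiredoxin had medians of -0.28, -0.01, 0.06 and 0.08 in IAT, BAT, brain and liver, with 0 of 7 called in each. Srxn1, the sulfiredoxin, had the smallest p in IAT, with a log2 fold change of -0.75 (SE 0.29, adjusted p = 0.298). The 14 genes listed for the thioredoxin and glutaredoxin system, not all of which reduce disulfides, had medians of -0.17, 0.19, 0.00 and 0.03. Medians of the 5 glutathione peroxidases were -0.43, 0.06, -0.15 and -0.06, with 0 called in either list. Prostaglandin genes had medians of -0.56 in IAT, -0.53 in BAT and -0.09 in brain, against 0.018, -0.0058 and -0.0015 over all genes. In IAT 16 of 18 had lower values and 0 were called. Of these 18, 8 had an unadjusted edgeR p under 0.05, as did 15.8% of all IAT genes. Ptgs2, the inducible cyclooxygenase, had the smallest p in IAT, with 5.47 CPM in WT and 1.24 CPM in KO and a log2 fold change of -2.13 (SE 0.25, adjusted p = 0.125). The IAT libraries with high lymphocyte or muscle marker sums enter these values. Stromal marker sums also differed, at 3099 to 5894 TPM in WT and 2125 to 2730 TPM in KO of IAT. In BAT they were 400 to 788 TPM in WT and 268 to 341 TPM in KO. Macrophage marker sums overlapped in IAT (1699 to 5435 TPM in WT, 972 to 2362 TPM in KO) and in BAT (144 to 443 TPM in WT, 114 to 165 TPM in KO). The part of any of these cell types was not tested.

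Genes next to the paralogues were read to see whether the changes extended along the chromosome. Tnfrsf14, an immune receptor gene 19444 bases from Prxl2b, had a log2 fold change of -0.15 in liver (adjusted p = 0.683), beside 0.79 for Prxl2b. Cdc14b, a phosphatase gene 14810 bases from Prxl2c, had values of -0.50 in liver (SE 0.13, adjusted p = 0.116) and 0.28 in brain (SE 0.15, adjusted p = 0.764), the same signs as Prxl2c, without a call. Ctsl, a lysosomal protease gene 49180 bases from Prxl2c on the other side, had -0.38 in liver (adjusted p = 0.153) and 0.02 in brain (adjusted p = 0.968). Tspan14, 26662 bases from Prxl2a, was not called in any tissue, with log2 fold changes of 0.07 to 0.16. The nearest gene on the other side that was tested in every tissue, Txndc16, lies 4120615 bases from Prxl2a. It had -0.45 in BAT (SE 0.16, adjusted p = 0.206) and -0.47 in liver (SE 0.19, adjusted p = 0.256). All its KO libraries lay below WT in both, as did those of 11% of all liver genes, while the share in BAT is not given here. Megf6, 620709 bases from Prxl2b, had -0.71 in brain (SE 0.27, adjusted p = 0.749) and -0.55 in liver (SE 0.34, adjusted p = 0.474).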

How the data were processed

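RNA of 24 libraries (3 WT and 3 KO in each of 4 tissues) was analysed from 1 deposited table. Per the file headers, the authors deposited expected counts, which are estimated reads per gene and not normalised. The TPM values are the authors' own too, per the file headers. The submitters' processing notes name the build GRCm38.p6 and the tools RSEM 1.3.1, Bowtie2 2.3.4.3 and DESeq2 1.4.5. The annotation and the use of strand were not given in the sources used here. A further 48 per-sample columns were not used.

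Expected counts (91.4% already whole within 1e-06) were rounded. Each tissue was fitted with edgeR 4.0.16 in R 4.3.3 (TMM, filterByExpr, quasi-likelihood F-test, Benjamini-Hochberg under 0.05). Differences between tissues and averages used 1 fit of 24 libraries, and WT levels used the 12 WT libraries. SE came from the F statistic and 95% intervals from the fit's degrees of freedom. As no label ties libraries to separate mice by name, p-values measure the spread between these libraries. No libraries were identical.

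Alternatives were RLE factors, other filters, DESeq2 1.42.0, limma-voom and limma-trend (limma 3.58.1) on log2(TPM + 1) and log2(TPM + 0.1), 1 fit of all libraries, the replicate number as a block, and leaving libraries out. A robust dispersion prior, and all alternatives for the liver-IAT difference of Prxl2b, were added after seeing the data. Tests were tested on simulated data.

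Positions come from RefSeq (GRCm38.p6), which matched 18958 gene identifiers (99.7%), and coding sequences from GENCODE M21 (GRCm38). The members and lists were chosen with earlier results of these data known. Named genes were the 3 members, up to 2 called genes per list and tissue (otherwise at most the gene with the smallest p), and the 4 genes most like each member among those with at least 5 TPM in their highest tissue. Neighbours were chosen by position, as the nearest genes tested in every tissue, after the values were seen.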

Additional observations from a re-analysis of the deposited data

Results flagged for a closer look

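The KO effect on Prxl2b was called different between liver and IAT, while the test over all 4 tissues was not called (edgeR adjusted p = 0.0559). Its log2 fold change in liver exceeded that in IAT by 1.12 (SE 0.23, edgeR adjusted p = 0.0392), with all 3 liver KO libraries above the WT libraries and overlapping groups in IAT. The IAT KO replicates 1 and 3, rich in lymphocyte transcripts (2232 and 1100 TPM summed over 10 markers), enter that difference. It was 0.76 without them, with a lone IAT KO library left.

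Prxl2c had values of opposite sign in brain and liver. Every KO library lay above WT in brain and below WT in liver. Over all genes, KO lay wholly above WT for 6.53% in brain and wholly below for 11% in liver. Prxl2c was called neither in brain (edgeR adjusted p = 0.749) nor in liver (0.254). The liver effect minus the brain effect was -0.49 on the log2 scale. That difference was not called (edgeR adjusted p = 0.193).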

How the results depend on the processing

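Of 323 alternative results for the family, 283 kept their side of the threshold and, where the test has a direction, that direction. Tests of a difference over all tissues have no direction. They include those between WT tissues, in which 96.1% of all genes were called. Of the 323, 17 lost and 10 gained a call, and 13 changed sign, none of them called. Prxl2a in IAT gained a call with DESeq2 (-4.59), limma-voom (-4.66) and 1 fit of all libraries (-4.58), and ranged from -4.95 to -4.31 with 1 library left out. Prxl2b in liver ranged from 0.73 to 0.87 with 1 library left out and lost its call in 5 of 6 such fits (adjusted p 0.0653 to 0.0895), which hold fewer libraries. The difference of Prxl2b between liver and IAT, for which every alternative was added after seeing the data, lost its call with limma-voom (1.15). It was 0.758 without both KO libraries rich in lymphocyte transcripts, which left a lone IAT KO library, and ranged from 0.979 to 1.35 with 1 library left out.

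The sign changed in these cases. Prxl2c in IAT was 0.0265 with limma-trend on log2(TPM + 1), with or without a filter, and 0.0273 on log2(TPM + 0.1), and Prxl2c in BAT was -0.0800 and -0.0819 on these. With 1 library left out, Prxl2c in BAT ranged from -0.0322 to 0.0482 and Prxl2b in brain from -0.0252 to 0.108. Prxl2b in IAT went from -0.34 to 0.00513 without both KO libraries rich in lymphocyte transcripts. The average of Prxl2c over tissues was -0.0130 with RLE factors, -0.0133 with DESeq2 and -0.0182 with limma-trend. The cause of these changes was not tested.

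The difference of the KO effect between tissues was called with DESeq2 (adjusted p = 0.0415 for Prxl2a, 0.00302 for Prxl2b and 0.0177 for Prxl2c), which called 7.7% of all genes. For Prxl2b it was also called with limma-trend (adjusted p = 0.0147) and with genotype and replicate number together as a block across tissues (0.0339). The share of all genes called under these last settings was not counted. Deviations of same-numbered WT and KO libraries of a tissue, which come from different mice, correlated at -0.239 to 0.394, over 0.1 in 3 of 12 pairs. Between tissues, same-numbered libraries correlated at -0.317 to 0.255 in WT (over 0.1 in 2 of 18 pairs) and -0.0434 to 0.0671 in KO (0 of 18). Whether equal numbers mark a mouse was not settled by these values. With the replicate number alone as a block within a tissue, Prxl2b in liver was 0.79 (adjusted p = 0.0341), and no member's call within a tissue changed.

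Genes called in liver numbered 137, against 367 with DESeq2, 228 with the block, 218 without a filter, 63 with limma-trend without a filter and 58 to 103 with 1 library left out. In IAT they numbered 0, against 1121 with DESeq2, 7 with limma-voom, 192 without WT replicate 1, 1760 without KO replicate 2 and 2573 in the fit of all libraries. In BAT they numbered 68, against 449 with DESeq2, 173 in that fit, 1 with the block, 28, 29 and 9 with limma-trend and 2 to 94 with 1 library left out. In brain they numbered 7, against 51 with DESeq2, 2 with limma-voom, 4 with the block and 1 to 9 with 1 library left out.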
